A study of Mus musculus with 24 samples.

Results

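The 10 genes described here encode the sensors, transcription factors and processing proteases of the unfolded protein response, together with a pair of its targets. They were chosen by name from the 22180 genes measured, each through an array cluster that carried its symbol alone. The sensors were Ern1 (IRE1α), Eif2ak3 (PERK), Atf6 and Atf6b, the transcription factors Xbp1 and Creb3l2, the proteases Mbtps1 (site-1) and Mbtps2 (site-2), and the targets Dnajc3 and Ero1b. Hspa5 (the chaperone BiP) and Ddit3 (CHOP) were followed as downstream genes. The question addressed was how these transcripts differed with the culture medium and with the nutrition of the mother in pregnancy, and whether the sensors moved together.

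Total RNA from primary quadriceps muscle cells of ICR mouse offspring was measured on 24 arrays, in 4 groups of 6. The mothers were fed freely (control) or, from day 12.5 of pregnancy, given 50% of the food of matched controls (undernourished), and all litters were equalized to 8 pups. Cells differentiated in DMEM with 5.5 mM glucose and 2% serum (standard medium) were compared with cells held overnight in limited medium, in which glucose was 0.5 mM and serum 1%, with glutamine at 1 mM and carnitine at 0.5 mM. Each number in the labels, called a culture here, had 1 array in each medium. The control cultures were 5, 10, 11, 15, 16 and 24, and the undernourished cultures were 1, 4, 8, 9, 12 and 20. Since the labels leave the source behind a number unstated, p-values measure the spread between these numbered samples, which may be technical.

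Proteins of the secretory pathway fold in the endoplasmic reticulum, and BiP holds the sensors inactive until unfolded proteins draw it away. IRE1α then splices the Xbp1 transcript, PERK phosphorylates the translation factor eIF2α and so favours ATF4 and CHOP, and ATF6 moves to the Golgi, where the site-1 and site-2 proteases release its active part. In muscle, the response is also active while myoblasts differentiate. The arrays give total transcript, so splicing, phosphorylation and cleavage were not measured.

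ATF6 and the spliced form of XBP1 are known to act through the endoplasmic reticulum stress element, which joins a CCAAT box to a CCACG end across 9 bases. The 250 bases before the transcript start are shown for the members that changed most and carry it, Dnajc3 and Ero1b, and for Hspa5 as the textbook example. They are also shown for Xbp1, which rose and has no exact match in this window. Bases outside the window were not searched. Capitals mark the whole 2-part element and, in Hspa5, also TGACGTG, the core of a cyclic AMP type element. The sequences are RefSeq's on GRCm38.p6, written 5′ to 3′ on the gene's strand, which is the plus strand for all 4. They lie at chr2:34771840-34772089 (Hspa5), chr14:118937682-118937931 (Dnajc3), chr13:12565633-12565882 (Ero1b) and chr11:5520391-5520640 (Xbp1).
Hspa5: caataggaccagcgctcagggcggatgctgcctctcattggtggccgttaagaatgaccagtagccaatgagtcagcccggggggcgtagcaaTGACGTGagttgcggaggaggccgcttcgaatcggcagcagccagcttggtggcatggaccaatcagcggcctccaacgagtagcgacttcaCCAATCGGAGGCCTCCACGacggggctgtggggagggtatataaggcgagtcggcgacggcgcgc
Dnajc3: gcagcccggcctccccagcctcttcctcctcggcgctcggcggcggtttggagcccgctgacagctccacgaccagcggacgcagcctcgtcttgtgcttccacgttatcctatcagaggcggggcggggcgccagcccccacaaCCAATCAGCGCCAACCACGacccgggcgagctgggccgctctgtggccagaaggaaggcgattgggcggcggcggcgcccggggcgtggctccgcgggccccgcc
Ero1b: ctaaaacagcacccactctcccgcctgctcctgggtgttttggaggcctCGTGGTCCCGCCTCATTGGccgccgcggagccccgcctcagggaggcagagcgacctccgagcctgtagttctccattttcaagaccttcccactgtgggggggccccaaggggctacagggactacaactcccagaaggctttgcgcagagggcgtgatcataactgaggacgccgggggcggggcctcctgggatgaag
Xbp1: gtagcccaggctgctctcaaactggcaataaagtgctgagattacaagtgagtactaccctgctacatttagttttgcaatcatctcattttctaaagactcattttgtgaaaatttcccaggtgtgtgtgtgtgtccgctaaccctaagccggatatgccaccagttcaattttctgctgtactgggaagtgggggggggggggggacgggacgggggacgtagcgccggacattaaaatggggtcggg

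The element lay 65 to 47 bases before the start in Hspa5 and 105 to 87 bases before it in Dnajc3, both reading with the gene. In Ero1b it lay 201 to 183 bases before the start on the opposite strand, so its letters read reversed and complemented. Of 32851 mouse promoter windows of the same length, 37 (0.113%) held the element on either strand. TGACGTG, 157 to 151 bases before the Hspa5 start, was in 1.65% of windows. The windows of Ern1, Eif2ak3, Atf6b, Xbp1, Creb3l2, Mbtps1, Mbtps2 and Ddit3 held no exact match to either. Only exact letters were searched for, so forms of the element that differ by a letter were not counted in any gene. Among these windows, Eif2ak3 had 6 single CCAAT boxes, Creb3l2 had 2, and Atf6b and Ddit3 had 1 each, a sequence found in 33.8% of windows. Ern1 and Mbtps1 each had 1 single CCACG, found in 28.3%. The shorter element ATTGG, 1 base and CCACG (0.0304% of windows) and TGATGCAA (0.791%), a letter form of the element that ATF4 with a C/EBP partner binds, were in none of the 11 windows. A match is a description of letters, and binding was not measured.

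**Figure D1:**
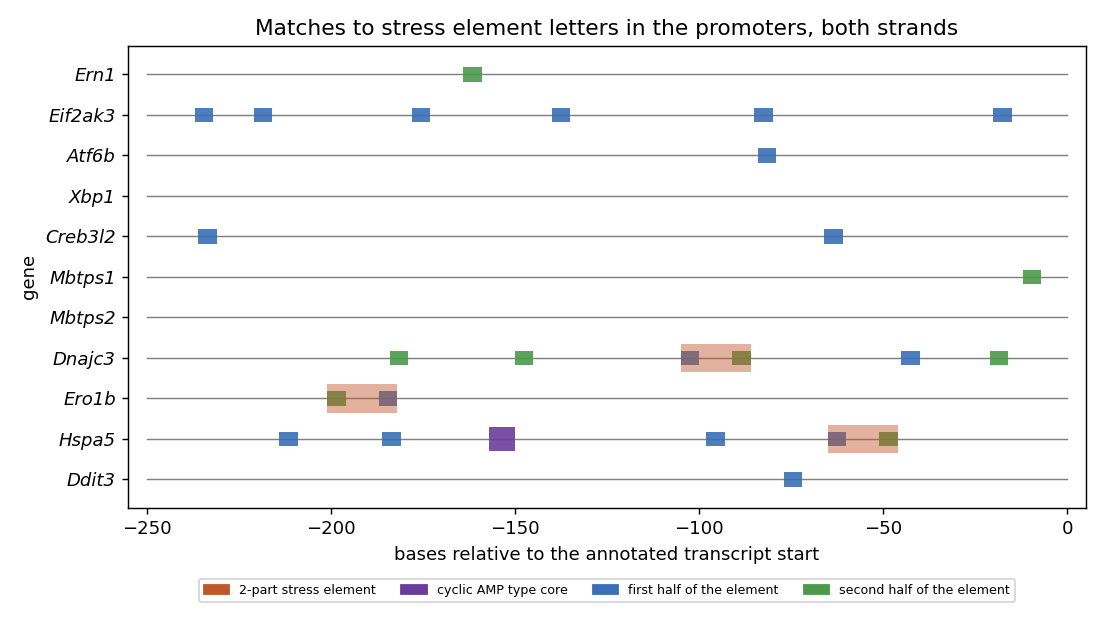
Exact matches on either strand in the 250 bases before the annotated start of 11 genes, with position in bases on the x axis and 1 row per gene. Large orange blocks are the 2-part element, purple is the cyclic AMP type core, and blue and green are its CCAAT and CCACG ends. The orange blocks stand in Dnajc3, Ero1b and Hspa5 alone.

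The cultures expressed muscle genes at high signal: the mean log2 signal of 10 myotube markers lay between 11.93 and 12.42 on every array. Cultures 16 and 20 stood apart on markers of other cells. The mean of 7 fibroblast markers was 7.39 and 7.74 in the arrays of culture 16 and 7.65 and 7.71 in those of culture 20, against group means of 6.02 to 6.36. Glial markers (4 measured) averaged 8.16 and 8.10 in culture 20, against group means of 5.36 to 5.55. They averaged 6.04 and 6.19 in culture 16 and 5.89 and 6.08 in culture 24, whose fibroblast means were 6.61 and 6.44. The group means include all of these cultures. None of the 7 fibroblast, 4 glial, 5 endothelial, 5 leukocyte, 5 smooth muscle or 5 adipocyte markers passed the test for medium, whereas Ckm and Tnni2 among the myotube markers rose and Vcam1 among 6 satellite cell and myoblast markers fell. In bulk samples, fewer cells of a type and less RNA per cell cannot be told apart.

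Limited medium was accompanied by higher transcript levels of targets of the response, while no sensor passed the test. Across both maternal diets, Xbp1, Dnajc3 and Ero1b rose, Mbtps1 fell, and the other 6 members, all 4 sensors among them, did not pass the test (limma, adjusted p under 0.05 over all 22180 genes). For comparison, 6.84% of all genes passed in either direction, 3.56% higher and 3.28% lower. The median difference of the 10 members was 0.17 on the log2 scale, against 0.01 over all genes. Hspa5 and Ddit3 also rose.

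Ern1 encodes the most conserved sensor, a kinase with an RNase domain. In standard medium its log2 signal had a lowest, median and highest value of 7.36, 7.65 and 8.32 in control cultures and of 7.17, 7.62 and 7.81 in undernourished cultures. In limited medium these were 7.45, 7.52 and 8.00 in control cultures and 7.56, 7.96 and 8.20 in undernourished cultures. All 4 groups overlapped. The difference between media was 0.10 ± 0.10 (SE, adjusted p = 0.649), with values of -0.13 ± 0.14 in control and 0.33 ± 0.14 in undernourished cultures. Ern1 was higher in limited medium in 2 of 6 control and 5 of 6 undernourished cultures. The test of that difference gave 0.45 ± 0.20, with adjusted p = 1 (limma; 0.0347 before adjustment).

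Eif2ak3 encodes the eIF2α kinase of the reticulum. Its lowest, median and highest log2 signals were 6.43, 6.57 and 7.02 in control standard and 6.29, 7.09 and 7.77 in control limited cultures. They were 6.50, 6.79 and 7.21 in undernourished standard and 6.72, 7.29 and 7.87 in undernourished limited cultures. The groups overlapped, but the limited medium groups reached further up. The difference was 0.38 ± 0.14 (limma, adjusted p = 0.124, and 0.0151 before adjustment), the largest among the sensors and short of the threshold. Its responses separated into 2 sets of cultures: 8, 10, 11, 16 and 20 ranged from -0.32 to 0.20, and the other 7 from 0.54 to 0.98.

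Atf6 encodes the membrane-bound factor that is cut free under stress. Its lowest, median and highest log2 signals were 10.15, 10.53 and 10.60 in control standard and 10.26, 10.49 and 10.82 in control limited cultures. The undernourished groups had 9.83, 10.63 and 10.77 in standard and 10.07, 10.88 and 11.02 in limited medium. The ranges overlapped, and the difference of 0.19 ± 0.11 did not pass (adjusted p = 0.343). Culture 20 gave the 10.07, well under the next value of 10.74. Atf6b, the related and weaker activator, spanned 7.58 to 8.27 over all arrays and differed by 0.15 ± 0.08 (adjusted p = 0.258).

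**Figure D2:**
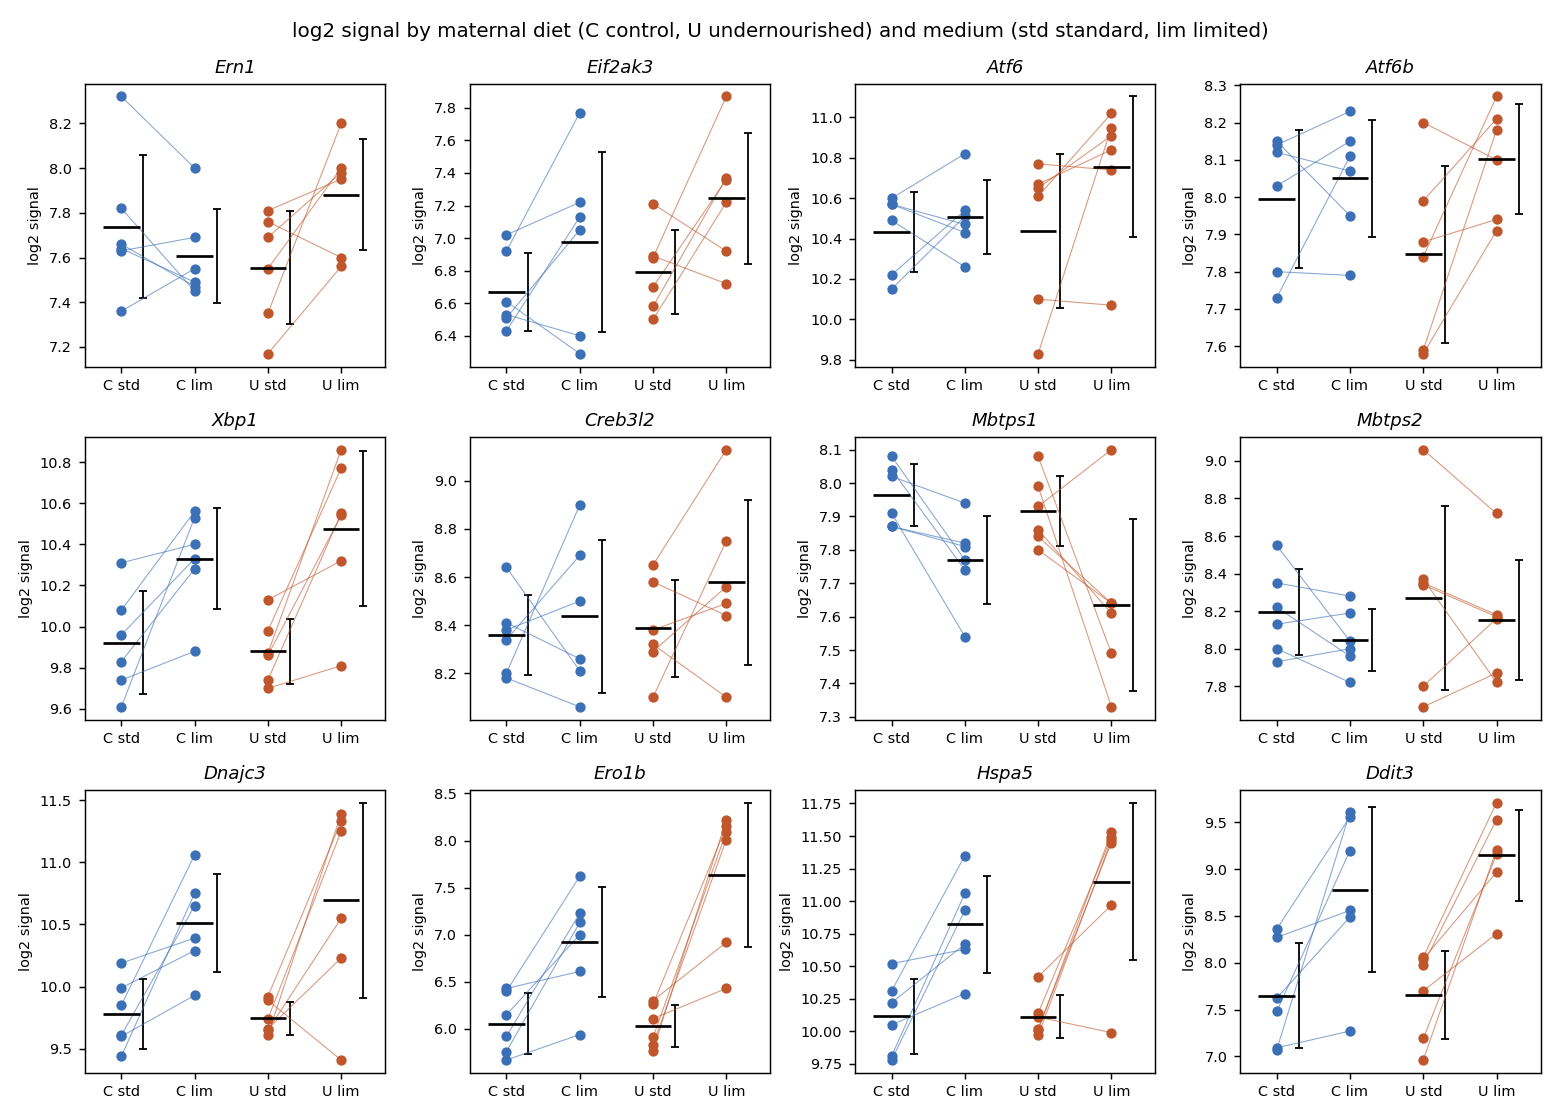
log2 signal (y axis) of the 10 members, Hspa5 and Ddit3 in the 4 groups (x axis: C control, U undernourished, std standard, lim limited medium). Points are arrays, thin lines join arrays of 1 culture number, black bars are means and error bars SD (n = 6); the y axes differ between panels. Ero1b and Ddit3 have no overlap between media in the undernourished groups, while the 4 sensors overlap throughout. Overlap was not counted for genes outside the figure.

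Xbp1, the factor whose transcript IRE1α splices, rose in every culture. Its lowest, median and highest log2 signals were 9.61, 9.90 and 10.31 in control standard and 9.88, 10.36 and 10.56 in control limited cultures. In undernourished cultures they were 9.70, 9.87 and 10.13 in standard and 9.81, 10.55 and 10.86 in limited medium. Although the ranges overlapped in both diets, the limited array was higher in 12 of 12 cultures, as it was for 1.36% of all genes. The difference was 0.50 ± 0.10, a fold of 1.41 (adjusted p = 0.00445). The smallest response, 0.09, was in culture 16 and the largest, 0.98, in culture 4. Creb3l2, a membrane-bound factor of the ATF6 kind that promotes secretory capacity, did not pass (0.13 ± 0.10, adjusted p = 0.517). Its signals lay between 8.06 and 9.13, and the highest value was that of culture 20 in limited medium, a culture with high fibroblast and glial markers. The part of those cells in that value was not tested.

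Mbtps1, the site-1 protease, makes the first cut in ATF6 and in the sterol factors. Its lowest, median and highest log2 signals were 7.87, 7.97 and 8.08 in control standard and 7.54, 7.79 and 7.94 in control limited cultures. They were 7.80, 7.89 and 8.08 in undernourished standard and 7.33, 7.62 and 8.10 in undernourished limited cultures. In 11 of 12 cultures the limited array was the lower one, and culture 20 was the exception (0.16 higher). The difference of -0.24 ± 0.07, 1.18-fold lower, passed narrowly (adjusted p = 0.0318). That call was lost on leaving out any one of control cultures 5, 10 or 11 or undernourished cultures 1, 4 or 12, with adjusted p from 0.0570 to 0.101. Mbtps2, the site-2 protease that follows it, ranged from 7.69 to 9.06 and differed by -0.13 ± 0.12 (adjusted p = 0.617). A second cluster that Mbtps2 shares with another gene was not used.

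Dnajc3, a co-chaperone of BiP that also restrains PERK, rose 1.79-fold. Its lowest, median and highest log2 signals went from 9.44, 9.73 and 10.19 in control standard to 9.93, 10.52 and 11.06 in control limited cultures. In undernourished cultures they went from 9.61, 9.70 and 9.92 to 9.41, 10.90 and 11.39. The lowest limited value, that of culture 20, lay under every standard value of its diet. Dnajc3 was higher in 11 of 12 cultures, and culture 20 had a response of -0.49. The difference was 0.84 ± 0.17 (adjusted p = 0.00446).

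Ero1b, the oxidase that recharges protein disulfide isomerases, had the largest change of the 10 members. Its lowest, median and highest log2 signals were 5.67, 6.03 and 6.43 in control standard and 5.94, 7.06 and 7.62 in control limited cultures. In undernourished cultures they were 5.77, 6.01 and 6.30 in standard and 6.43, 8.05 and 8.22 in limited medium, with no overlap between media. How many of all genes lack such overlap was not counted. It rose by 1.24 ± 0.19, a fold of 2.36 (adjusted p = 0.000389), and was higher in 12 of 12 cultures. The companion oxidase Ero1a gave 0.09 ± 0.22 (adjusted p = 0.875).

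Hspa5 rose by 0.87 ± 0.15 and Ddit3 by 1.31 ± 0.23 (limma, adjusted p = 0.000856 and 0.00120), folds of 1.83 and 2.49. Median log2 signals of Hspa5 were 10.13 and 10.80 in standard and limited control cultures and 10.06 and 11.46 in undernourished ones. Those of Ddit3 were 7.55 and 8.88 in control and 7.84 and 9.18 in undernourished cultures. Ddit3, the factor linked to stress-induced cell death, was higher in 12 of 12 cultures. Its media did not overlap in undernourished cultures, a trait not counted over all genes. Hspa5 was higher in 11 of 12, with -0.12 in culture 20. Xbp1, Dnajc3, Ero1b, Hspa5 and Ddit3 each passed under all 21 alternatives tried for this comparison.

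**Figure D3:**
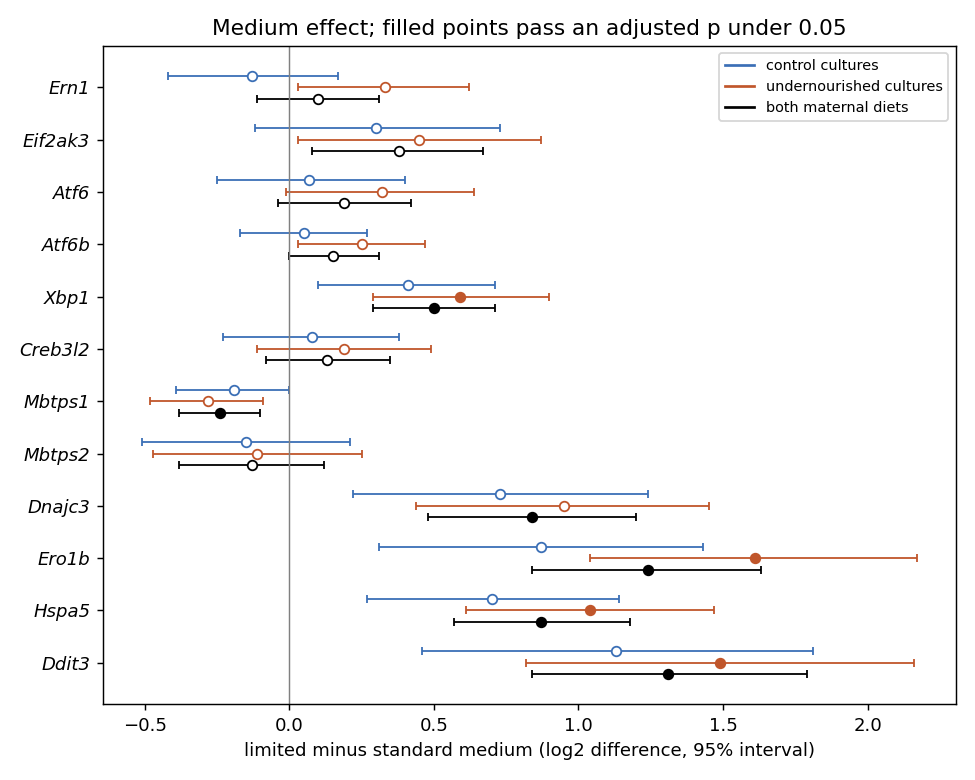
Limited minus standard medium (x axis, log2 difference with 95% interval) for 12 genes (y axis), in control cultures, undernourished cultures and both. Filled points passed an adjusted p under 0.05. For both diets the filled points are Xbp1, Mbtps1, Dnajc3, Ero1b, Hspa5 and Ddit3.

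Within control cultures alone, none of the 10 members passed (limma, 0.343% of all genes did), and 3 had an unadjusted p under 0.05. Differences were 0.41 ± 0.15 for Xbp1 (adjusted p = 0.213), 0.73 ± 0.25 for Dnajc3 (0.184 as adjusted p) and 0.87 ± 0.27 for Ero1b (adjusted p = 0.155). Within undernourished cultures, Xbp1 and Ero1b rose, against 1.46% of genes called in either direction and 0.726% higher. Xbp1 differed by 0.59 ± 0.15 (adjusted p = 0.0400), Ero1b by 1.61 ± 0.27 or 3.04-fold (adjusted p = 0.00390), and Dnajc3 by 0.95 ± 0.25 (adjusted p = 0.0507). Hspa5 and Ddit3 rose there by 1.04 ± 0.21 and 1.49 ± 0.33, and gave 0.70 ± 0.21 and 1.13 ± 0.33 in control cultures (adjusted p = 0.131 and 0.119). Without cultures 16 and 20, Hspa5 passed in control cultures as well (0.82, adjusted p = 0.0288).

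The count in undernourished cultures depended on single cultures. It was 4 without culture 20, when Dnajc3 and Mbtps1 passed as well, and 1 without any one of cultures 1, 4, 9, 12, 10 or 24, when Xbp1 was lost and Ero1b alone passed. The calls of Hspa5 and Ddit3 there were also lost without any one of cultures 1, 4, 9 or 12, with adjusted p from 0.0574 to 0.0764 and from 0.0720 to 0.105. The count was 4 without cultures 16 and 20, and 0 without cultures 9 and 12. The number called among all 22180 genes moved too. It was 324 with every culture, 494 without cultures 16 and 20, and 10 without cultures 9 and 12. Leaving out culture 1, 4, 9, 12, 10 or 24 gave 89, 51, 115, 75, 214 and 274 in that order, and leaving out culture 20 gave 469. Without cultures 9 and 12, Xbp1, Ero1b, Hspa5 and Ddit3 differed by 0.49, 1.25, 0.82 and 1.18 in undernourished cultures, with adjusted p of 0.337, 0.158, 0.252 and 0.288 from 4 cultures.

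The response to medium was not shown to differ between the maternal diets. The difference of responses passed for none of the 10 members by limma (0% of all genes were called), with adjusted p of 1 throughout. One member, Ern1, was under 0.05 before adjustment, and 643 genes were among all tested. For Ero1b, whose response was 0.74 ± 0.39 larger in undernourished cultures, the 95% interval ran from -0.05 to 1.53.

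Maternal diet by itself gave no call among the members in standard medium, in limited medium or over both media (0% of all genes were called in each, by limma). Before adjustment, 697, 1206 and 791 of all genes were under 0.05 in these comparisons. In standard medium the 10 differences, undernourished minus control, lay between -0.18 (Ern1) and 0.12 (Eif2ak3). In limited medium Ero1b was 0.72 ± 0.27 higher in undernourished cultures (limma, adjusted p = 0.894, and 0.0144 before adjustment), and 9 of 10 members had a positive difference. The median difference there was 0.16 over the members and 0 over all genes. The members' values come from the same arrays, so their signs are not separate observations. The comparisons of medium and of diet share arrays.

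**Figure D4:**
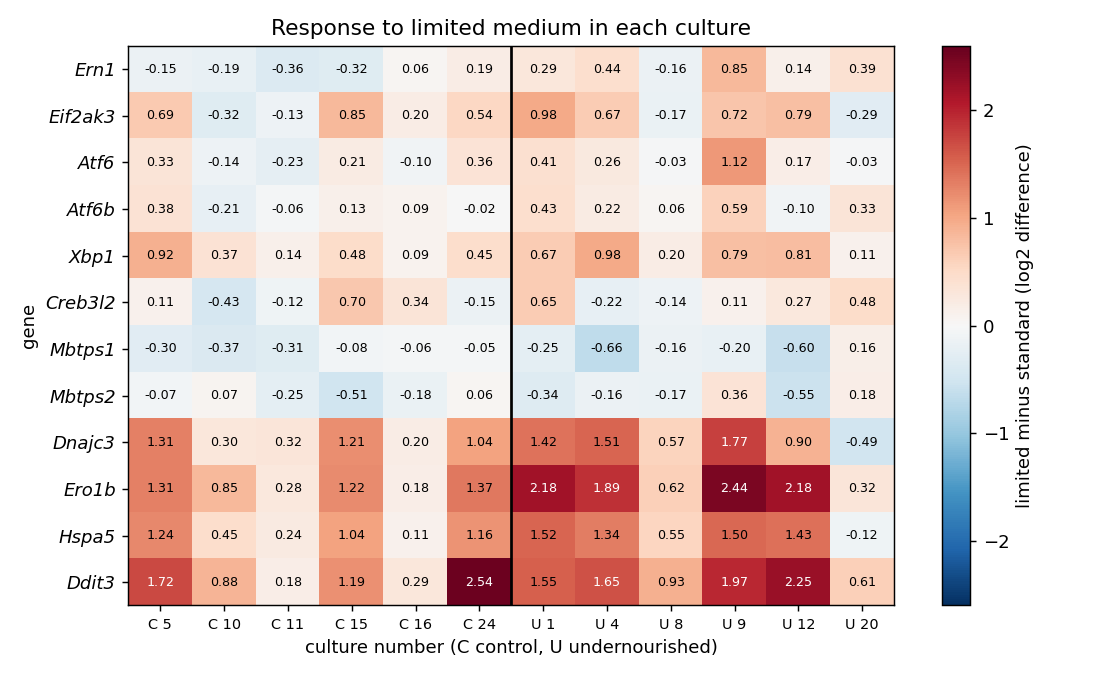
Limited minus standard log2 signal for each culture (x axis, C control and U undernourished) and gene (y axis), printed in each cell and coloured from blue (lower) to red (higher). Rows Xbp1, Ero1b and Ddit3 are above 0 in 12 of 12 cultures. Columns 8, 10, 11, 16 and 20 hold the 5 lowest values of Eif2ak3, Atf6, Xbp1, Dnajc3, Ero1b, Hspa5 and Ddit3.

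The same cultures stood low for several genes. Cultures 8, 10, 11, 16 and 20 had the 5 lowest responses of Eif2ak3, Atf6, Xbp1, Dnajc3, Ero1b, Hspa5 and Ddit3. They comprise 3 control and 2 undernourished cultures. For Hspa5 they ranged from -0.12 to 0.55 and the other 7 cultures from 1.04 to 1.52. For Dnajc3 they ranged from -0.49 to 0.57, against 0.90 to 1.77. The mean response over the 10 members was highest in culture 9, at 0.86, and lowest in culture 11, at -0.07. The arrays of culture 9, matched by their labels, did not deviate together across genes. The median response over all genes stayed between -0.02 and 0.03 in each culture.

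Relations among responses were computed over the 12 cultures, each response being the limited minus the standard array. The arrays were matched by the number in their labels. Both values of a pair come from the same 2 arrays, so they share what is particular to those arrays. Where the responses of a gene fell into 2 sets separated by more than 0.25 of their range, as for Eif2ak3 and Hspa5, r was computed only within the set of 7 cultures, a rule chosen after the values were seen. Together with relations among standard medium levels, 139 were computed and adjusted as 1 family, of which 7 passed and 31 had an unadjusted p under 0.05.

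The sensors did not form a passing group. Between Ern1 and Atf6, Pearson's r was 0.72 (permutation adjusted p = 0.0804) and Spearman's rho 0.67 (adjusted p = 0.144), and without cultures 9 and 11, the farthest from the median, r was 0.26. Ern1 and Atf6b gave r of 0.65 and rho of 0.60 (adjusted p = 0.133 and 0.201, permutation test), with r of 0.36 without the same cultures. For Atf6 and Atf6b, r was 0.72 and rho 0.71 (permutation adjusted p = 0.0740 and 0.120), falling to 0.47. Across 16 alternatives, Atf6 with Atf6b passed in 2 (r from 0.53 to 0.82), Ern1 with Atf6 in 1 (0.42 to 0.85) and Ern1 with Atf6b in 0 (0.44 to 0.76). Within the 7 cultures with the larger Eif2ak3 response, r with Ern1 was -0.17, with Atf6 -0.09 and with Atf6b 0.26 (permutation adjusted p = 0.944, 0.983 and 0.873).

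Over all cultures, the Atf6 response was related to those of both targets. How many of all genes relate to Atf6 as closely as these targets was not counted. Atf6 against Ero1b gave r of 0.80 and rho of 0.81 (permutation adjusted p = 0.0259 and 0.0486), and r of 0.78 without cultures 9 and 11. Atf6 against Dnajc3 gave r of 0.79 and rho of 0.83 (permutation adjusted p = 0.0459 and 0.0395), and 0.83 without them. Across 16 alternatives the first of these relations passed in 13 and the second in 5 (adjusted p up to 0.109). Within diets, r of Atf6 with Ero1b was 0.89 in the 6 control and 0.73 in the 6 undernourished cultures (exact permutation p = 0.0389 and 0.0778). Eif2ak3, lowest in the same cultures, was compared with the targets within 7 cultures only. The sensors are therefore not set against each other here, and whether Atf6 differs from the others was not tested.

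Over all cultures, Xbp1 moved with both targets. The share of all genes that do so was not counted here either. Against Ero1b, r was 0.87 and rho 0.84 (permutation adjusted p = 0.0259 and 0.0395), and r was 0.99 without cultures 4 and 5. Against Dnajc3, r was 0.84 and rho 0.85 (permutation adjusted p = 0.0278 and 0.0395), and 0.83 without those cultures. Dnajc3 and Ero1b gave r of 0.85 and rho of 0.82 (permutation adjusted p = 0.0259 and 0.0395), and 0.82 without cultures 9 and 20. Across 16 alternatives these relations passed in 12, 12 and 13. Within diets, Xbp1 and Ero1b had r of 0.82 in control and 0.91 in undernourished cultures (exact permutation p = 0.0222 and 0.0486, n = 6 each).

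Toward Ddit3, Ero1b passed with r of 0.83 and rho of 0.87 (permutation adjusted p = 0.0301 and 0.0395), and r was 0.78 without cultures 9 and 16. It passed in 6 of 16 alternatives (adjusted p up to 0.109). Xbp1 gave r of 0.76 and Atf6 0.69, short of the threshold (permutation adjusted p = 0.0740 and 0.0804), and Ern1 gave 0.44 (adjusted p = 0.464). Eif2ak3, whose pathway leads to Ddit3, had r of -0.64 within its 7 cultures (permutation adjusted p = 0.426). Toward Hspa5 within the 7 cultures, r was 0.94 for Ero1b, 0.74 for Ern1, 0.52 for Xbp1, 0.48 for Atf6 and 0.33 for Eif2ak3, and none passed (permutation adjusted p = 0.0674, 0.246, 0.549, 0.604 and 0.765).

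These values depend on the separation into sets, which the Eif2ak3 responses passed narrowly, with a gap of 0.258 of their range. Over all 12 cultures, r of Eif2ak3 was 0.70 with Ddit3, opposite in sign to the value within the 7 cultures. Over the same 12 cultures, r with Hspa5 was 0.88 for Eif2ak3, 0.90 for Xbp1, 0.75 for Atf6 and 0.38 for Ern1, so the order of the sensors was not the one within the 7 cultures. The values over 12 cultures in which Eif2ak3 or Hspa5 takes part include the distance between the sets and are given as a description, with no test.

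The number of passing response relations, 6, was 0 without culture 9, 0 without culture 16, 3 without culture 15, 11 without culture 20 and 1 without cultures 16 and 20. The arrays of cultures 9 and 12 are linked by their labels, but unlike the other cultures they did not deviate together across genes, and without both cultures 5 response relations passed. Among standard medium levels, Xbp1 with Hspa5 passed by r, at 0.82 (permutation adjusted p = 0.0301), and not by rho, at 0.67 (adjusted p = 0.144). Without cultures 5 and 16 that r was 0.64. That single pass was lost without any one of cultures 5, 9, 12, 15 or 16, and 4 relations passed without culture 20 and 2 without culture 10.

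**Figure D5:**
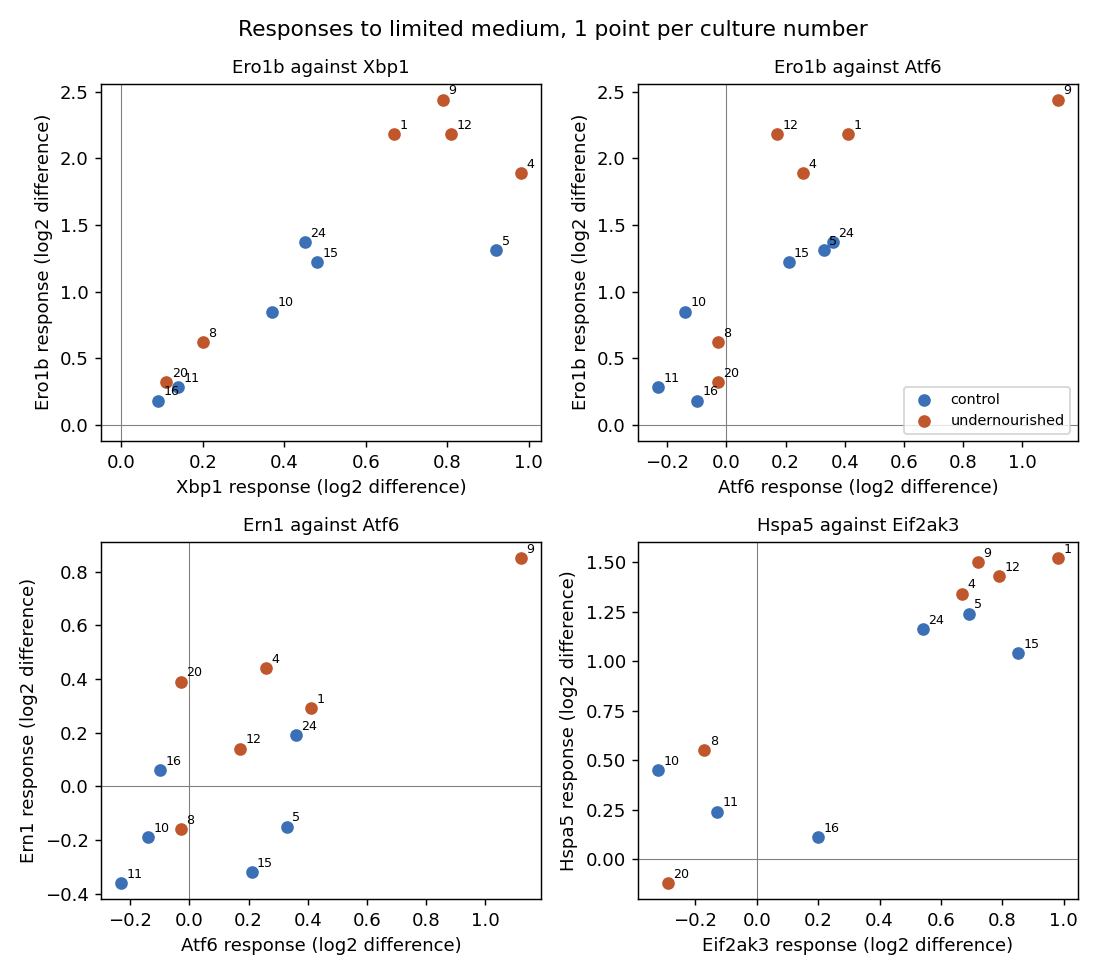
Responses (limited minus standard, log2 difference) of gene pairs, with 1 labelled point per culture, blue for control and orange for undernourished. Ero1b lies along a line with Xbp1 (r of 0.87) and rises with Atf6 (r of 0.80), culture 9 stands far out for Ern1 against Atf6, and Hspa5 against Eif2ak3 falls into 2 separate sets of 5 and 7 cultures.

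The genes whose responses were most like those of a member are given as a description, by Pearson's r over the 12 cultures, with 10329 genes of at least median signal compared. For Ern1 these were Slc38a9 (0.95), Simc1 (0.94) and Brd2 (0.92), and for Atf6 they were Slc38a2 (0.96), Ahctf1 (0.94) and Spty2d1 (0.94). Eif2ak3 was most like Erp44, Piga (0.93 for each) and Rrbp1 (0.92), values that include its separation into 2 sets. Xbp1 was most like Selenos (0.97), Uap1 (0.94) and Ppp1r15a (0.93). SELENOS takes part in removing misfolded proteins from the reticulum, and Ppp1r15a encodes the phosphatase subunit that reverses the action of PERK. By the same measure, Hspa5 and Ddit3 ranked 330 and 534 for Atf6 and 34 and 289 for Xbp1. Their ranks were 19 and 213 for Eif2ak3 and 1783 and 1364 for Ern1.

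The wider pathway is described by lists of known targets and partners for the medium effect over both diets, each set against 3.56% of genes called higher and 3.28% lower. Target lists carry the name of an arm, but eIF2α has other kinases, and ATF6 and XBP1 share an element. Which arm acted on the listed genes was not tested. The lists were chosen with earlier results of these data known, so their counts are a description. A gene that both factors can drive may stand in 1 list only, so the lists are not set against each other. Of 11 measured ATF6 targets, Hspa5 among them, 11 rose (median difference 1.06). The largest differences were those of Sdf2l1 (1.70 ± 0.23), Creld2 (1.63 ± 0.18), Derl3 (1.43 ± 0.27) and Herpud1 (1.29 ± 0.17). Of 15 PERK targets 10 rose and none fell (median 0.67). The leading ones were Slc7a11 (1.33 ± 0.33), a cystine transporter, Ddit3, Trib3 (1.21 ± 0.23) and Chac1 (1.08 ± 0.20), which degrades glutathione. Of 13 targets of IRE1α and XBP1, 4 rose (median 0.29): the co-chaperones Dnajb9 (0.97 ± 0.21) and Dnajb11 (0.68 ± 0.13), the mannosidase-like Edem1 (0.94 ± 0.18) and the isomerase Pdia6 (0.54 ± 0.11). In control cultures alone, where only 0.167% of all genes passed as higher, 2 of 11 ATF6, 0 of 15 PERK and 0 of 13 IRE1α and XBP1 targets did. Their medians were 0.82, 0.44 and 0.10. In undernourished cultures, where 0.726% of all genes passed as higher, 11, 9 and 4 did, with medians of 1.31, 0.90 and 0.40. No gene of all tested passed for the difference between diets by limma (643 before adjustment). Of 6 substrates of IRE1α-dependent decay, Hgsnat fell by 0.33 (SE 0.09) and the other 5, Bloc1s1 among them (-0.01 ± 0.11), did not pass.

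Relatives of the sensors and proteases mostly did not pass. Of the other eIF2α kinases and Ern2, 4 genes in all, Eif2ak2, which senses double-stranded RNA, fell by 0.42 (SE 0.10) and Eif2ak4, which senses amino acid shortage, fell by 0.41 (SE 0.09). None of 4 other membrane-bound factors of the CREB3 family passed, with 0.35 ± 0.15 for Creb3l1 (limma, adjusted p = 0.196). Of 5 other substrates of the site-1 and site-2 proteases, Srebf2, the cholesterol factor, fell by 0.36 (SE 0.08). Of 3 genes for sterol escort and retention, Insig1 fell by 0.41 (SE 0.13). Among 13 partners of the sensors 3 rose: Ppp1r15a (0.64 ± 0.15), Wfs1 (0.36 ± 0.11), which restrains ATF6, and Traf2 (0.34 ± 0.07), the adaptor of IRE1α.

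Relatives of the 2 targets were mixed. Of 10 other J proteins of the reticulum 3 rose, Dnajb9, Dnajb11 and Dnajc25 (0.27 ± 0.07), with a list median of 0.02. Of 8 other genes of oxidative folding 2 rose, Pdia6 and Pdia3 (0.53 ± 0.10), with a list median of 0.13. The calls of Wfs1, Insig1 and Hgsnat were close to the threshold (limma, adjusted p = 0.0452, 0.0471 and 0.0308), and each was lost on leaving out single cultures. Without cultures 9 and 12, 473 of all genes were called higher, against 790 with every culture. The numbers called higher were then 11 of 11 ATF6 targets, 6 of 15 PERK targets, 3 of 13 IRE1α and XBP1 targets, 1 of 10 J proteins and 1 of 13 partners. Eif2ak2, Ppp1r15a, Dnajb9, Dnajc25 and Slc7a11 were then among those not passing (adjusted p from 0.0545 to 0.134). Without cultures 16 and 20 the counts were 11, 11, 5, 3 and 2 in the same order, with 897 of all genes called higher.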

How the data were processed

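RNA of 12 numbered cultures, each in both media, was measured on 24 single-colour Affymetrix arrays. The deposited values are log2 signals that the authors made with RMA in Affymetrix Expression Console, per the submitters' processing notes; their versions were not stated, and the log base is taken from the usual RMA scale. Array medians lay between 5.60 and 5.81, and no 2 arrays held identical values. Of 41345 clusters, 23521 had 1 gene symbol, 1814 carried more than 1, and 16010 were left unnamed. Each gene was represented by its cluster of highest mean (22180 genes). The number of arrays limits the precision.

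Groups were compared with limma 3.58.1 in R 4.3.3 (lmFit and eBayes, two-sided, all 24 arrays), with Benjamini-Hochberg adjustment over all genes; the diet effect over both media used the mean of each culture's arrays. Relations used two-sided permutation tests with 100000 resamples, and exact tests within smaller sets. The scripts were tested on simulated data. The members and lists were chosen with earlier results of these data known. Named are the members, Hspa5 and Ddit3, up to 4 called genes of each list with the largest difference, and for Ern1, Eif2ak3, Atf6 and Xbp1 the 3 genes with the most similar response; other genes were named after their values were seen. Alternatives were quantile normalization, array weights, trended variance, the array number in the titles as a covariate, a filter on low signal, the mean over all clusters of a gene and left-out cultures. Promoters are RefSeq's (GRCm38.p6), with 11 of the 12 genes matched. Pdia4, Eif2s1 and Fbn1 were not analysed here.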

Additional observations from a re-analysis of the deposited data

Results flagged for a closer look

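In undernourished cultures in limited medium, 1 array, that of culture 20, lay far from the other 5 for a pair of genes. Its Atf6 log2 signal was 10.07 against 10.74 for the nearest culture, a gap of 0.707 of the group's range. Its Hspa5 log2 signal was 9.99 against 10.97, a gap of 0.637 of the range. Both gaps exceeded Dixon's critical value for 6 arrays. In all, 2 of 48 gene and group combinations passed that limit, where chance gives about 1 in 20. Culture 20 also had high glial (8.16 and 8.10) and fibroblast (7.65 and 7.71) marker means on both arrays, and their part in these values was not tested.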

How the results depend on the processing

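The medium effect over both diets kept its direction for Xbp1 (0.45 to 0.58), Dnajc3 (0.74 to 1.03), Ero1b (1.06 to 1.43), Hspa5 (0.76 to 1.05), Ddit3 (1.16 to 1.49) and Mbtps1 (-0.30 to -0.20) under 21 alternatives, and Mbtps1 passed in 14 of them. Leaving out 1 culture gave 3 to 4 members called over both diets, 1 to 4 in undernourished cultures, 0 to 11 response relations and 0 to 4 standard level relations. Without cultures 16 and 20 the undernourished count was 4, with 1 response and 0 standard level relations. Without cultures 9 and 12, an alternative chosen after seeing the data, the undernourished count was 0. Among all genes, 494 and 10 were called in undernourished cultures in these settings, against 324 with every culture. Standard level relations were also 0 after quantile normalization and by Spearman's rho, and the cause was not tested for any of these.

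Arrays of the same culture number deviated together (r over 0.1) in 10 of 12 cultures, and those 10 correlated best with their own number. Cultures 9 (r of -0.05) and 12 (0.018) did not, so the numbers were not used as a block in the fits above, while responses per culture were matched by the number in the labels. With the number as a replicate block, 4 members passed over both diets, 0 in control and 3 in undernourished cultures (Dnajc3, adjusted p = 0.0228 by limma), and 0 for the difference of responses. Among all genes, 2597, 551, 1007 and 0 were called in the same order. Ddit3 passed in control cultures (adjusted p = 0.0290).

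Of the 65 sign changes among single genes and pairs, 18 arose in settings other than leaving out 1 culture, and every one was of a value that passed no test. For diet in standard medium, quantile normalization gave Atf6 -0.01, Creb3l2 -0.01 and Ddit3 -0.02. Array weights gave Xbp1 0.01, Creb3l2 -0.02, Ero1b 0.03 and Hspa5 0.04, and leaving out cultures 16 and 20 gave Xbp1 0.07, Creb3l2 -0.03, Dnajc3 0.02, Ero1b 0.04 and Hspa5 0.08. Elsewhere, array weights gave Creb3l2 -0.01 for medium in control cultures and Mbtps2 -0.12 for the difference of responses. Without cultures 16 and 20, Mbtps2 gave -0.03 for that difference and Atf6b 0.03 for diet over both media. Without cultures 9 and 12, Eif2ak3 gave -0.01 for the difference of responses. The r of Eif2ak3 and Atf6 was 0.06 after quantile normalization. With 1 culture left out, diet in standard medium ranged from -0.06 to 0.13 (Atf6), -0.02 to 0.08 (Creb3l2), -0.11 to 0.15 (Ddit3), -0.10 to 0.05 (Dnajc3 and Ero1b), -0.07 to 0.08 (Hspa5), -0.09 to 0.19 (Mbtps2) and -0.10 to 0.03 (Xbp1). Diet over both media ranged from -0.02 to 0.33 (Ddit3), -0.01 to 0.19 (Dnajc3), -0.05 to 0.17 (Mbtps2) and -0.01 to 0.14 (Xbp1), and diet in limited medium from -0.01 to 0.17 (Mbtps2). Medium in control cultures ranged from -0.01 to 0.10 (Atf6b) and -0.05 to 0.18 (Creb3l2), and the difference of responses from -0.06 to 0.12 (Mbtps2). The r of Eif2ak3 ranged from -0.17 to 0.01 with Atf6, -0.02 to 0.81 with Hspa5 and -0.34 to 0.04 with Ern1. The cause of these changes was not tested. The 6 arrays per group limit the precision of small differences.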

Other observations

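Across all genes, those whose 250-base promoter window held the 2-part stress element were described after the values of the members were seen, with no test. Of 35 such genes 27 were measured, and 11 of them (40.7%) rose with limited medium and none fell, against 3.77% higher among 16990 measured genes with a promoter entry. The median difference of the 27 was 0.12, against 0.01. Besides Dnajc3, Ero1b and Hspa5, the 11 were Creld2 (1.63), Derl3 (1.43), Syvn1 (1.15), Hsp90b1 (0.76), Calr (0.65), Pdia6 (0.54), Calr4 (0.47) and Alg12 (0.35). They include chaperones of the reticulum (Hsp90b1 and Calr) and components of the degradation of misfolded proteins (Derl3 and the ubiquitin ligase Syvn1). Canx, a lectin chaperone with the same element, gave 0.03 ± 0.07. For the single CCAAT box, 4.15% of 6575 measured genes were higher, and for TGACGTG 8.06% of 360. Several of the 11 are also in the ATF6 target list, so the 2 descriptions share genes.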
